A study of Mus musculus with 6 samples.

Results

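The miRNAs encoded inside the Hox clusters were followed in fat of C57BL/6J mice, a common inbred strain. They are 5 of the 1251 miRNA arms in the deposited table, picked by name: miR-10a-5p, miR-10b-5p, miR-615-3p, miR-196a-5p and miR-196b-5p. All 5 names were found, each on 1 row. There were 3 small RNA libraries of interscapular brown adipose tissue (labelled BF-EPA 3, 4 and 5), the heat-producing depot between the shoulder blades, and 3 of inguinal subcutaneous adipose tissue (SUB-EPA 1, 3 and 8), a white depot of the groin. Mice of both groups started the diet at an age of 5 to 6 weeks and ate it for 11 weeks. Fat supplied 45% of its energy, protein 20% and carbohydrate 35%, and it was supplemented with 6.75% eicosapentaenoic acid (EPA), an omega-3 fatty acid. They were fasted for 4 hours before the tissues were taken. Whether any mouse gave both tissues is not stated in the labels, and p-values measure only the spread between these libraries. Since both groups received EPA, the comparison here is between tissues, not between diets.

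Hox genes encode transcription factors that give cells their identity along the body axis. They lie in 4 clusters, HoxA to HoxD, and genes at the same place in different clusters form numbered paralog groups, with low numbers active towards the head and high numbers towards the tail. Several miRNAs are encoded among them and repress Hox mRNAs, among other targets. In mice, miR-196a is known to favour the appearance of brown-like adipocytes in white fat by repressing Hoxc8.

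The mature sequences from RefSeq (GRCm38.p6, 5′ to 3′) are shown because they define which of the 5 are relatives and how closely the relatives resemble each other; capitals mark the seed, bases 2 to 8, which sets most target pairing.
miR-10a-5p: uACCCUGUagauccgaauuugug
miR-10b-5p: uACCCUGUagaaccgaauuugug
miR-615-3p: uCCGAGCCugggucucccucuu
miR-196a-5p: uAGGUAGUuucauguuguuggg
miR-196b-5p: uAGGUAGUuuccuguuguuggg
They fall into 3 seed groups: the miR-10 pair, the miR-196 pair, and miR-615-3p alone. No other arm in the RefSeq table used here has any of these seeds. The miR-10 pair differs at 1 position, U12A from miR-10a-5p to miR-10b-5p, and the miR-196 pair also at 1, A12C from miR-196a-5p to miR-196b-5p, both counted from the 5′ end. The number of mismatches allowed when reads were assigned is not given in the sources used here, so reads with an error at position 12 could have been counted for the partner.

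For the miR-196 pair, the letters ACTACCT, the DNA complement of the seed, were searched on the sense strand in the 3′ UTR of the longest-UTR coding transcript of Hoxc8 and of Hoxb8 (GENCODE M21). The 966-base Hoxc8 3′ UTR, on chromosome 15, holds 2 matches, at bases 135 and 892 of the UTR, each shown over 22 bases with the match in capitals.
Hoxc8 first match: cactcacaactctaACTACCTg
Hoxc8 second match: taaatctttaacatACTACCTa
Of 10475 genes with a 3′ UTR at least as long, cut to that length, 3.8% hold the letters. They do not occur in the 845-base Hoxb8 3′ UTR, where 3.3% of 11383 genes hold them over that length. Only exact matches were searched for, so a site with a G:U pair or a mismatch in the seed would be missed. The search therefore does not show that Hoxb8 lacks a miR-196 site. Neither Hox mRNA was measured here.

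By position, the hairpins form 2 classes in the annotation (GENCODE M21; GRCm38 is the mm10 assembly that the authors' reads were mapped to). Those of the miR-10 pair and miR-615 lie near paralog groups 4 and 5. Mir10a (chr11:96317165-96317274, plus strand) lies between Hoxb5 and Hoxb4, 993 bases upstream of Hoxb4. Mir10b (chr2:74726070-74726137, plus strand) lies within the bounds of Hoxd3 and Hoxd4, outside their exons, and Mir615 (chr15:103014910-103015001, plus strand) within Hoxc5, outside its exons. The miR-196 hairpins lie at group 9 or between it and the next gene of higher group number. Mir196a-1 (chr11:96265164-96265265, plus strand) lies 6192 bases upstream of Hoxb9. Mir196a-2 (chr15:102973350-102973434, plus strand) lies between Hoxc10 and Hoxc9, within the outer bounds of Hoxc5 but in none of its exons. Mir196b (chr6:52230081-52230165, minus strand) overlaps an annotated exon of Hoxa9 and lies 1032 bases from Hoxa10. The mature miR-196a-5p is the same from both of its hairpins, so its value is their sum.

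**Figure D1:**
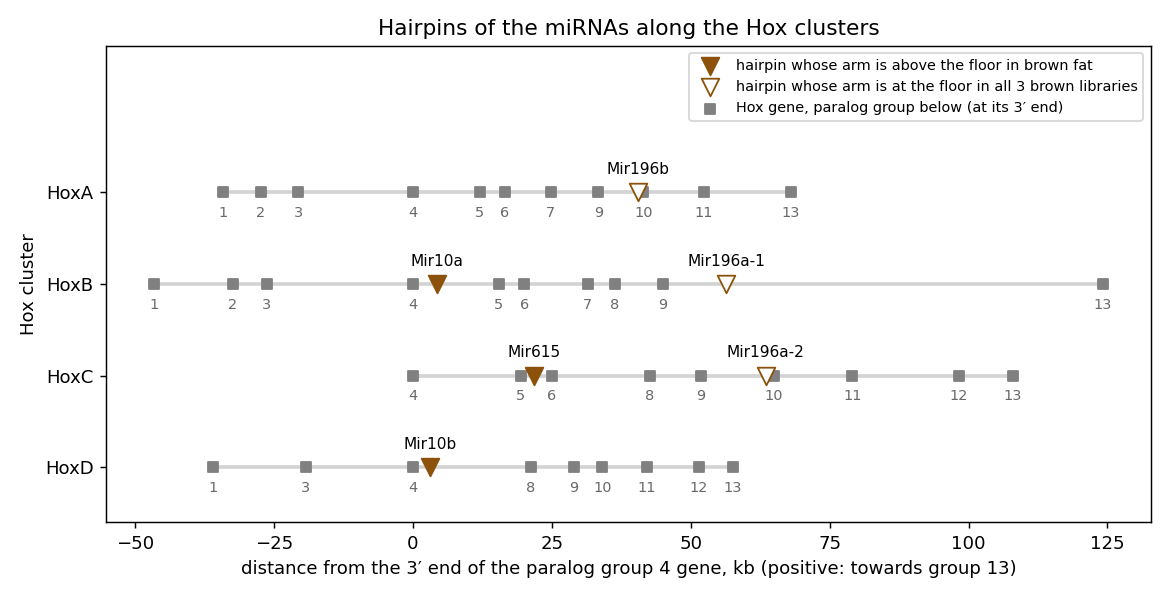
Hairpins (triangles) and Hox genes (squares, with paralog group numbers) in the 4 clusters, by distance in kb from the 3′ end of the group 4 gene. Filled triangles, whose arms stood above the table's floor in brown fat, lie at 3.1 to 21.9 kb; open triangles, whose arms were at the floor in all 3 brown libraries, lie at 40.5 to 63.5 kb.

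Values are the authors' normalized abundances on the log2 scale, with a floor at 3.32, where 910 arms stand in all 6 libraries. All libraries share a maximum of 18.67 and nearly 1 distribution, so every value is relative to the rest of its library and read depth cannot be recovered from the table. Between 235 and 273 arms per library stood above the floor. Marker miRNAs of brown adipocytes (miR-193b-3p, miR-365-3p, miR-455-3p and miR-378a-3p) made up 19.1% to 19.7% of the linear total of brown libraries, against 1.69% to 2.08% in subcutaneous libraries. That sum was led by miR-378a-3p, which stood at the shared maximum of 18.67 in every brown library. Skeletal muscle markers, led by miR-133a-3p, ranged from 0.0526% to 6.29% in brown and from 0.0706% to 5.12% in subcutaneous libraries, highest in BF-EPA 4 and SUB-EPA 3. Epithelial markers were at 0.0111% to 0.0161% in brown and 0.0124% to 1.64% in subcutaneous libraries, highest in SUB-EPA 1, where miR-205-5p led. In bulk tissue, fewer cells of a type and less RNA per cell cannot be told apart.

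All 5 miRNAs passed the filter on low values, miR-196a-5p and miR-196b-5p through their subcutaneous values alone. Brown fat had less of most of these miRNAs than subcutaneous fat, and the pair encoded at or beyond group 9 was listed at the floor there. Of the 3 members above the floor in both tissues, 2 passed the test as lower in brown fat and 0 as higher, also 0 before adjustment (limma, Benjamini-Hochberg adjusted p under 0.05), where 35.7% of all 269 tested arms were lower and 33.5% higher. The 3 brown values lay wholly below the 3 subcutaneous values for 2 of these 3 members, as they did for 40.1% of all tested arms. The median difference, brown minus subcutaneous, was -0.45 on the log2 scale over all tested arms. The 2 members at the floor in brown fat were also called lower, but having entered the test through their subcutaneous values they could differ in 1 direction only, and their calls are given as a description.

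**Figure D2:**
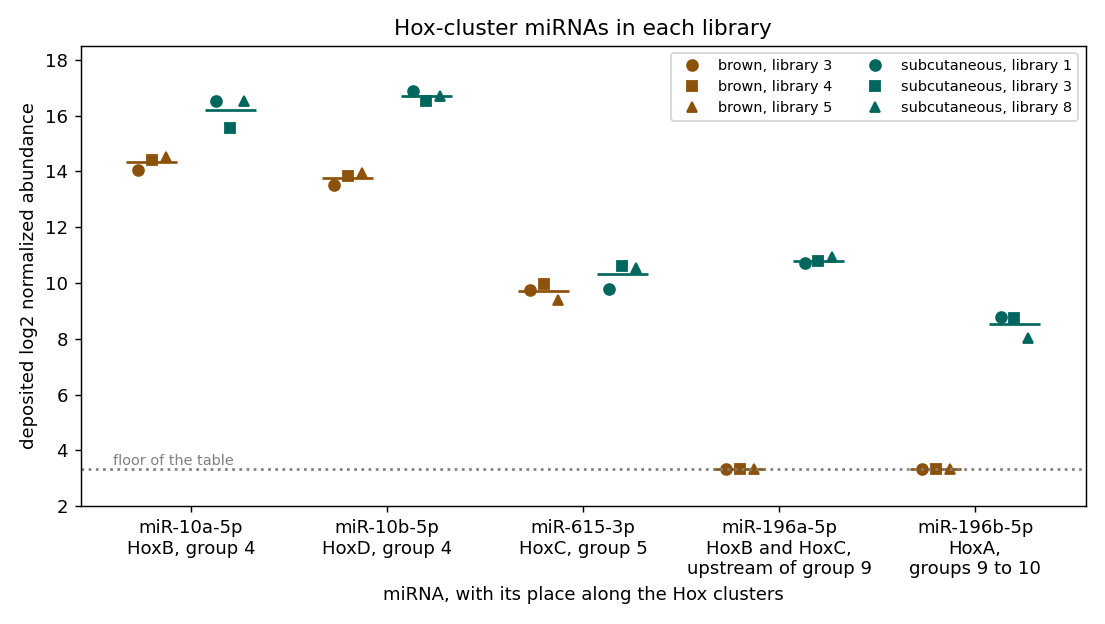
Deposited log2 abundance of each miRNA in each library, in order of place along the Hox clusters, brown left of subcutaneous; bars are means of 3 libraries and the dotted line is the floor at 3.32. MiR-196a-5p and miR-196b-5p sit on the floor in all brown libraries, and only miR-615-3p has overlapping groups.

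The miR-10 pair was abundant in both tissues. MiR-10a-5p, a regulator of Hox genes that is also known from endothelial cells, stood at 14.05, 14.41 and 14.52 in brown libraries 3, 4 and 5, against 16.51, 15.56 and 16.51 in subcutaneous libraries 1, 3 and 8 (log2 abundance). The groups did not overlap, and SUB-EPA 3 was the lowest of its group. It averaged 14.33 ± 0.24 in brown and 16.19 ± 0.55 in subcutaneous fat (SD, n = 3 each), and was 3.64-fold lower in brown fat (log2 difference -1.86 ± 0.29 SE, limma adjusted p = 0.00183). With each library's linear trend with GC content removed the difference was -0.80 (limma adjusted p = 0.0276).

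MiR-10b-5p, best known for promoting cell migration and invasion in tumours, stood at 13.51, 13.84 and 13.94 in brown libraries 3, 4 and 5, against 16.90, 16.51 and 16.72 in subcutaneous libraries 1, 3 and 8. The groups did not overlap, and SUB-EPA 3 was again the lowest subcutaneous library. Its log2 difference was -2.95 ± 0.17 SE (limma adjusted p = 3.82e-05), a 7.71-fold lower level in brown fat, and -1.89 with the GC trend removed (limma adjusted p = 0.00014). In rank among all arms of a library, miR-10b-5p was 28th to 34th in brown and 5th to 7th in subcutaneous fat, and miR-10a-5p 20th to 26th in brown and 7th to 13th in subcutaneous fat.

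Together the pair held 1.19%, 1.51% and 1.63% of the linear total of the brown libraries, against 8.97%, 5.87% and 8.35% of the subcutaneous libraries. The balance within the pair also differed. MiR-10b-5p made up 40.7%, 40.3% and 40.1% of the pair in brown libraries 3, 4 and 5, and 56.8%, 65.9% and 53.6% in subcutaneous libraries 1, 3 and 8. MiR-10a-5p was thus the more abundant in every brown library and miR-10b-5p in every subcutaneous one. The log2 ratio of miR-10b-5p to miR-10a-5p averaged -0.56 ± 0.02 in brown and 0.52 ± 0.38 in subcutaneous fat (SD, n = 3 each), a difference of -1.08. An exact two-sided permutation test gave p = 0.1, the smallest this test can give with 3 against 3 libraries, so it cannot reach 0.05 here. Both arms have a GC content of 43.5%, and this ratio does not change with a scaling common to a library. It can change under a step that gives all libraries 1 distribution, as these values nearly have, and without counts this could not be checked. The 2 ranges of the pair touched in subcutaneous fat, where the lowest miR-10b-5p value and the highest miR-10a-5p value were both 16.51. Each of these values was at rank 7 of its library, and most top ranks hold a single value across libraries.

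**Figure D3:**
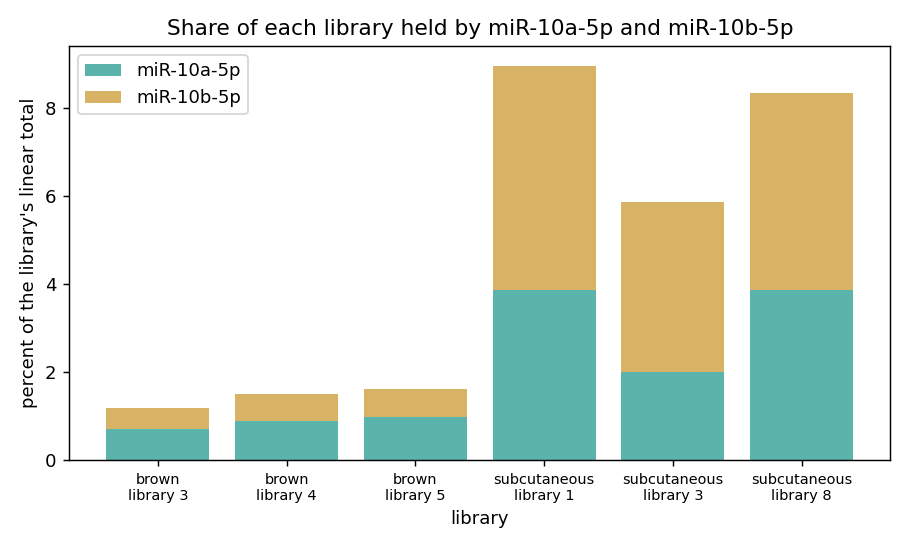
Percent of each library's linear total (after the floor is subtracted) held by miR-10a-5p and miR-10b-5p, stacked, for 3 brown and 3 subcutaneous libraries. The pair reaches 1.19% to 1.63% in brown and 5.87% to 8.97% in subcutaneous libraries, with miR-10b-5p the larger part in subcutaneous libraries alone.

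MiR-615-3p, from the Hoxc5 locus, was the exception in the deposited values. It stood at 9.76, 9.97 and 9.39 in brown libraries 3, 4 and 5, against 9.80, 10.61 and 10.54 in subcutaneous libraries 1, 3 and 8. The groups overlapped, with SUB-EPA 1 within the brown range. The log2 difference was -0.61 ± 0.29 SE with a 95% confidence interval of -1.31 to 0.09 (limma adjusted p = 0.1), so a difference of the size of miR-10b-5p's lay outside the interval. Without SUB-EPA 1 it was -0.87 with a limma adjusted p of 0.0215. Leaving out any other single library gave -0.74 to -0.45, with limma adjusted p of 0.103 to 0.252. Median-of-ratios scaling gave -0.19 (limma adjusted p = 0.566). Under 13 of 15 alternatives miR-615-3p was not called. With the GC trend removed the difference was -2.18 (limma adjusted p = 0.000324), against -0.80 for miR-10a-5p and -1.89 for miR-10b-5p. In that fit miR-615-3p was not the exception.

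The miR-196 pair was listed at the floor in all 3 brown libraries. MiR-196a-5p stood at 3.32 in each brown library, against 10.70, 10.79 and 10.93 in subcutaneous libraries 1, 3 and 8. It averaged 10.81 ± 0.11 in subcutaneous fat (SD, n = 3), the smallest spread of the 5 members there. MiR-196b-5p stood at 3.32 in each brown library, against 8.79, 8.73 and 8.04 in the same subcutaneous libraries. The groups did not overlap for either arm. Since the brown libraries add no spread and the level below the floor is unknown, no fold or p is given for the pair. Over all 269 tested arms, 19 (7.06%) were at the floor in all 3 brown libraries. Of 127 tested arms whose subcutaneous mean was at least that of miR-196b-5p, 5 (3.94%) were at the floor in every brown library. Besides the miR-196 pair these were miR-205-5p, miR-335-3p and miR-340-5p, named after their values were seen. The cut is the mean of miR-196b-5p itself, so the pair is counted among the 5 by the choice of cut, and the share is a description.

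Within subcutaneous fat, miR-196a-5p exceeded miR-196b-5p by 1.91, 2.06 and 2.89 log2 units in libraries 1, 3 and 8. It also exceeded miR-615-3p in each library, by 0.90, 0.18 and 0.38, and their ranges did not overlap. In brown fat the order of the second pair was turned, with miR-196a-5p at the floor and miR-615-3p at ranks 92 to 105 of the library. The order of mean log2 level was therefore miR-10a-5p, miR-10b-5p, miR-615-3p and then the miR-196 pair in brown fat, and miR-10b-5p, miR-10a-5p, miR-196a-5p, miR-615-3p and miR-196b-5p in subcutaneous fat. The mature arms are 22 or 23 bases long, so no length correction was made. No correction for GC content was made either, which is 40.9% for miR-196a-5p and 63.6% for miR-615-3p. Subcutaneous values fell with GC content, with slopes of -0.1223 to -0.091 log2 units per percentage point. Over that span such slopes exceed the gaps between the 2 arms, so their order in subcutaneous fat holds for the deposited values only.

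Arms from hairpins of a single cluster therefore differed in brown fat. In HoxB, miR-10a-5p was among the 26 most abundant arms of every brown library, while miR-196a-5p, one of whose hairpins lies 51.9 kb from Mir10a, was at the floor. In HoxC, miR-615-3p was above the floor in every brown library, while the other hairpin of miR-196a-5p lies 41.5 kb away. The 3 members above the floor in brown fat lie near groups 4 and 5, and both at the floor lie at or beyond group 9. With 5 miRNAs from 6 hairpins this order is a description and was not tested.

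**Figure D4:**
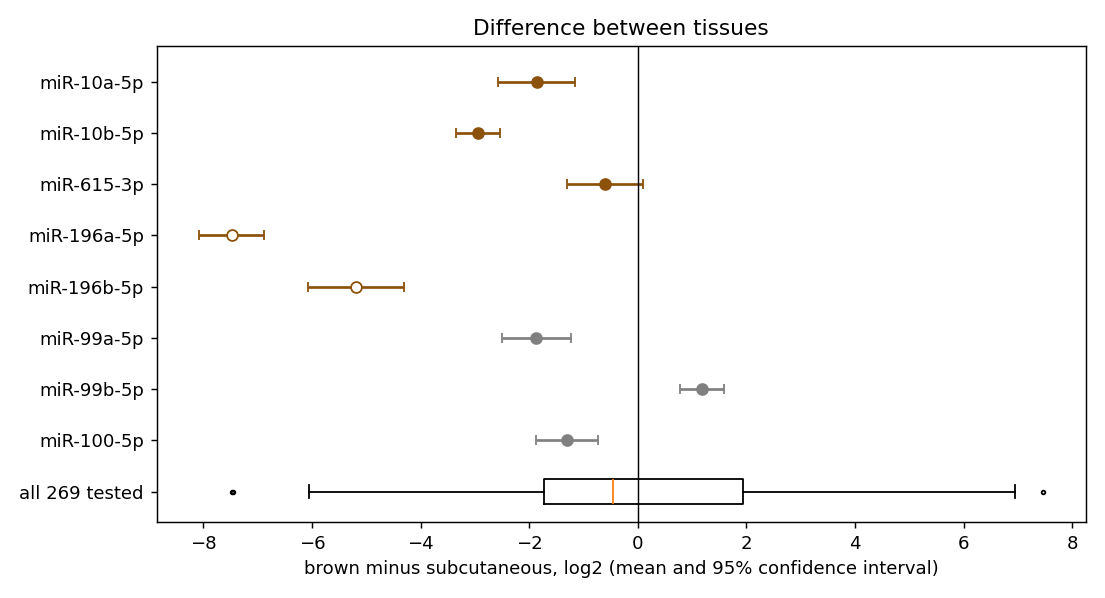
Log2 difference, brown minus subcutaneous, with its 95% confidence interval from limma (n = 3 libraries per tissue) for the 5 Hox-cluster miRNAs (brown) and 3 relatives of miR-10 (grey), above a box plot of all 269 tested arms. Open circles mark miR-196a-5p and miR-196b-5p, whose brown libraries were all at the floor, so that their position depends on where the floor lies. Their drawn intervals hold no spread from brown libraries and do not measure the precision of these differences. Of the intervals drawn, only that of miR-615-3p spans 0.

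The opposite arms of these hairpins were scarce. Of 6 in the table, 0 passed the filter on low values. MiR-10a-3p stood at 5.94 in SUB-EPA 8 and at the floor in the other 5 libraries. MiR-196a-2-3p, specific to the HoxC copy of miR-196a, stood at 4.53 in SUB-EPA 3 and at the floor elsewhere, while miR-196a-1-3p, specific to the HoxB copy, was at the floor in all 6. MiR-615-5p stood at 5.77 and 6.01 in brown libraries 3 and 4 and at the floor in BF-EPA 5 and all subcutaneous libraries. MiR-10b-3p and miR-196b-3p were at the floor in all 6 libraries.

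Relatives of miR-10 encoded outside the Hox clusters were compared, since miR-99 and miR-100 belong to the same ancient family but carry a different seed. All 3 tested arms were called, 2 lower and 1 higher in brown fat. Of all 269 tested arms, 35.7% were called lower and 33.5% higher. GC content is 50% for miR-99a-5p and miR-100-5p and 63.6% for miR-99b-5p, and its part in these differences was not tested. MiR-99a-5p was 3.65-fold lower in brown fat (log2 difference -1.87 ± 0.26 SE, limma adjusted p = 0.00118), close in size to miR-10a-5p, and miR-100-5p 2.47-fold lower (-1.30 ± 0.23 SE, limma adjusted p = 0.00297). MiR-99b-5p was 2.26-fold higher in brown fat (1.18 ± 0.17 SE, limma adjusted p = 0.00118).

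The arms with the pattern nearest to each member were found by the root mean square difference of log2 values over the 6 libraries, after each arm's own mean was subtracted. For miR-10a-5p the nearest were miR-99a-5p (0.171), miR-24-3p (0.222) and miR-93-5p (0.248). For miR-10b-5p they were miR-26b-5p (0.230), let-7c-5p (0.233) and miR-29b-3p (0.246). For miR-615-3p they were miR-34a-5p (0.170), miR-676-3p (0.199) and miR-214-3p (0.227). The nearest to miR-196a-5p was miR-335-3p (0.268) and then, at a distance, miR-340-5p (0.885) and miR-223-3p (1.166), and the nearest to miR-196b-5p were miR-298-5p (0.249), miR-335-5p (0.526) and miR-138-5p (0.530). Tissue is the main contrast among these libraries, so arms with a like tissue difference come out as near. The miR-196 pair, miR-335-3p, miR-340-5p, miR-298-5p, miR-335-5p and miR-138-5p were at the floor in all 3 brown libraries. Nearness among them follows from that shared floor and a like subcutaneous level, and is a description. MiR-29b-3p was also at the floor in all 3 brown libraries, so its distance to miR-10b-5p depends on where the floor lies.

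Other measures moved with the tissues. The marker calls below stand beside 35.7% of all 269 tested arms called lower in brown fat and 33.5% called higher. Fibroblast and smooth muscle markers (miR-199a-3p, miR-199a-5p, miR-214-3p, miR-143-3p and miR-145a-5p) made up 1.06% to 1.28% of brown and 3.77% to 4.73% of subcutaneous libraries, with 4 of 5 called lower in brown fat. Both endothelial markers, miR-126-3p and miR-126-5p, were called lower too, at 0.134% to 0.158% in brown and 0.412% to 0.524% in subcutaneous libraries. The 6 leukocyte markers summed to 1.39% to 1.89% in brown and 0.626% to 0.840% in subcutaneous libraries, a sum led by miR-150-5p, while miR-223-3p and others were called lower (3 lower and 1 higher of 4 tested); miR-142-3p and miR-155-5p were at the floor in all 6. The 3 red cell markers summed to 8.72% to 8.73% in brown and 0.811% to 1.51% in subcutaneous libraries, a sum carried by miR-486-5p, which was called higher in brown fat, while miR-451a was called lower (log2 difference -1.49, limma adjusted p = 0.00662) and miR-144-3p was at the floor in all 6. Of 3 muscle and 5 epithelial markers tested, 0 were called in either direction by limma, or 0 muscle and 1 epithelial marker at an unadjusted p under 0.05; miR-1a-3p was at the floor in all 6. The part of these cell types in the differences of the Hox-cluster miRNAs was not tested. With BF-EPA 4 and SUB-EPA 3, the libraries highest in muscle markers, left out, the differences were -2.22 for miR-10a-5p, -3.08 for miR-10b-5p and -0.60 for miR-615-3p on the log2 scale. The miR-10 pair was called lower in that fit, as were 33.1% of all tested arms, and 29.7% were higher. The miR-196 pair was at the floor in the brown libraries of that fit too, so its calls could go in 1 direction only.

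Base composition also moved with tissue. Across the 229 tested arms with a RefSeq sequence, the slope of log2 abundance on GC content was 0.017 to 0.0262 per percentage point in brown libraries and -0.1223 to -0.091 in subcutaneous libraries. Of 56 arms with a GC content under 45%, 69.6% were called lower in brown fat, against 31.2% of 128 arms from 45% to under 60%, and 8.9% of 45 arms at 60% or more. MiR-196a-5p (40.9%) and the miR-10 pair (43.5%) fall in the first class, miR-196b-5p (45.5%) in the second and miR-615-3p (63.6%) in the third, where the median difference was 1.94. With each library's linear GC trend removed, all 5 members were called lower in brown fat, the miR-196 pair again against the floor, as were 36.2% of the 229 arms, and 28.4% were higher. The part of base composition in these differences was not tested further.

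**Figure D5:**
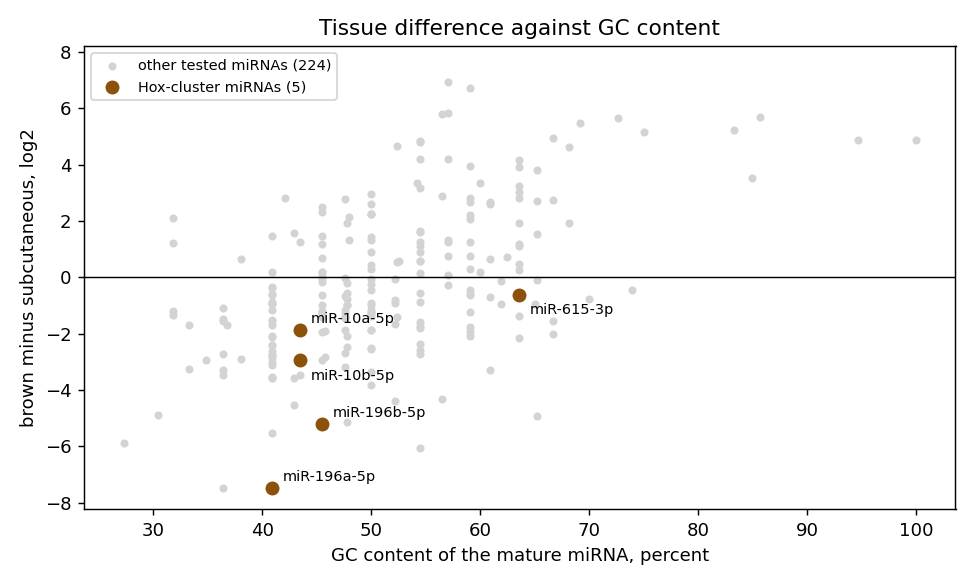
Log2 difference, brown minus subcutaneous, of 229 tested arms (points) against the GC content of the mature miRNA in percent, with the 5 Hox-cluster miRNAs in brown. MiR-196a-5p, at 40.9% GC, lies lowest of the 5, at a difference set by the floor, where the median of arms under 45% was -1.97, and miR-615-3p, at 63.6%, lies at -0.61 where the median of arms at 60% or more was 1.94.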

How the data were processed

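The authors deposited log2 normalized abundances of 1251 miRNA arms in 6 libraries. The series' design text names mm10 as the build, scaling of unique reads to all usable reads, an addition of 40 counts, and some 13.8 M mapped reads per library. How reads were trimmed, aligned and assigned to arms is not given in these sources. The values have a floor at 3.32 (10 on the linear scale), 910 arms are at it in all libraries, and 64% of the 100 highest ranks hold a single value in every library within 1e-06, as quantile normalization would leave them. Beyond that approximate figure the depth of each library is not known, nor the counts behind each arm, and no counting interval is given.

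Arms were tested where the mean linear value above the floor reached 0.001% of the mean library total (24.05 units), which left 269 arms, all 5 members among them. The 2 members at the floor in brown fat passed through their subcutaneous values. The test was limma 3.58.1 (R 4.3.3) with a mean-variance trend, Benjamini-Hochberg adjustment over the 269 arms at 0.05, and differences as brown minus subcutaneous; 95% confidence intervals are limma's. The miR-10 ratio was tested by exact permutation over libraries. The fit was tested on simulated data with normal noise and no floor, so that check does not cover arms at the floor. Python 3.11.15, pandas 2.3.3 and matplotlib 3.10.9 were used for the rest. GC content was taken from RefSeq mature sequences, matched by name for 85.1% of tested arms. The members, marker lists and alternatives were chosen with earlier results of these data known. Named arms followed a rule: the members, the opposite arms of their hairpins, miR-99 and miR-100 relatives, the 3 nearest patterns of each member, and markers.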

Additional observations from a re-analysis of the deposited data

How the results depend on the processing

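Under 15 alternatives, miR-10a-5p and miR-10b-5p stayed lower in brown fat and past the threshold. So did miR-196a-5p, and miR-196b-5p under the 14 that could include it, but against the floor, where calls could go in 1 direction only. MiR-615-3p was lower under all 15, past the threshold under 2: -2.18 with the GC trend removed (limma adjusted p = 0.000324) and -0.87 without SUB-EPA 1. Leaving out 1 library at a time gave log2 differences of -2.18 to -1.71 for miR-10a-5p, -3.05 to -2.82 for miR-10b-5p and -0.87 to -0.45 for miR-615-3p. The miR-196 calls rest on brown libraries at the floor, and the size of these differences follows the floor and is no bound: -5.19 and -3.03 with 40 added on the linear scale, and -10.80 and -8.48 with the floor subtracted and 1 added, for miR-196a-5p and miR-196b-5p in that order. Median-of-ratios scaling moved the median of all arms to -0.04 from -0.45 and gave -1.45 for miR-10a-5p, -2.53 for miR-10b-5p and -0.19 for miR-615-3p. With a filter 10 times as strict, 157 arms were tested, miR-196b-5p was not among them, and 58 arms were higher in brown fat, against 90 with the filter used. The miR-10 ratio differed by -1.24 to -0.86 under its alternatives. No paired analysis was possible because the groups share only the number 3. Without both libraries so numbered, the miR-10 pair passed again, and the miR-196 pair again against the floor. Leaving out the libraries highest in muscle markers was chosen after seeing the data. With 3 libraries per tissue and no depth per arm, a value at the floor does not show that a miRNA is absent.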
